A study of Mus musculus with 16 samples.

Results

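A set of 10 transcripts that mark mature mouse neutrophils or their synthesis of histamine was followed in liver neutrophils that lacked the interferon gamma receptor and in wild-type neutrophils of the same animals. They were S100a8, S100a9, Csf3r, Retnlg, Wfdc21, Stfa2l1, Hdc, Trem1, Trem3 and Cd24a, and they were found by matching the Ensembl identifiers of the deposited table to GENCODE gene names. All 10 of the 10 genes were among the 54532 identifiers of the table, and all 10 were among the 9851 genes that passed the filter on low counts. Hdc, which encodes the enzyme that makes histamine, was the 1 gene of the 10 that passed the test between genotypes: its level in Ifngr1-deficient neutrophils was 49.0% of that in wild-type neutrophils (95% interval 37.8% to 63.5%). The other 9 did not pass.

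Each of 8 C57BL/6 mice (numbered 2 to 9) was a wild-type host that had been irradiated (about 1000 cGy) and given equal parts, 50% each, of CD45.2+ Ifngr1-/- and CD45.1+ wild-type bone marrow, with 8 weeks for reconstitution. All 8 carried MC38 tumours, grown from a mouse colon carcinoma line, in the flank, were treated with a CD40-activating antibody (aCD40) a week after tumour injection, and gave their livers 2 days after the antibody. Neutrophils of each CD45 type were sorted from each liver, which gave 8 Ifngr1_KO and 8 WT libraries that pair by mouse. No untreated, tumour-free or non-irradiated group was analysed here, so every value describes the treated state. The labels give neither the animals' ages nor the neutrophil surface markers used in the sort. Marrow donor, CD45 type and sort gate go with the genotype and cannot be told apart from it. Per the series' design text, each number is 1 mouse, so the 8 pairs are 8 animals.

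Neutrophils leave the marrow as non-dividing cells whose transcripts are dominated by a small set of secreted and cytosolic proteins, among them the calcium-binding alarmins S100A8 and S100A9. Their production and release depend on granulocyte colony-stimulating factor, which acts through the receptor encoded by Csf3r. Histamine is made from histidine by the single enzyme histidine decarboxylase, best known from mast cells and basophils and in mice also from cells of the myeloid lineage, and interferon gamma is read by a receptor of which IFNGR1 is the ligand-binding chain.

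Libraries held 12.5 to 16.9 M counts in Ifngr1_KO (median 13.4 M) and 13.1 to 21.7 M in WT (median 16.3 M). The targeted transcript Ifngr1 averaged 83.9 ± 29.5 CPM (counts per M, scaled between libraries by the TMM method) in Ifngr1_KO and 305 ± 46.6 CPM in WT (SD, n = 8 mice each), was lower in Ifngr1_KO in 8 of 8 mice and did not overlap between groups. Neutrophil identity was read from a list of 20 other neutrophil genes such as Ly6g and Cxcr2, all of which were detected, with a summed level of 27945 to 43777 CPM in Ifngr1_KO and 34724 to 47733 CPM in WT. The 15 annotated markers of dividing granulocyte precursors summed to 111 to 177 CPM in Ifngr1_KO and 115 to 165 CPM in WT. The tubulin gene Tuba1b made up most of this sum, at a mean of 120 CPM in each genotype. Of the 8 markers tested, 0 passed the test between genotypes, 5 had a positive and 3 a negative log2 fold change. Elane averaged 2.06 CPM in Ifngr1_KO and 0.487 CPM in WT, with at most 45 counts in any library (adjusted p = 0.142 in edgeR). It was higher in 8 of 8 mice without overlap between groups, as were 0.173% of all genes tested. Prtn3 averaged 4.67 CPM in Ifngr1_KO and 1.78 CPM in WT and was higher in 7 of 8 mice. The proliferation gene Mki67 went the other way, at 2.12 CPM in Ifngr1_KO and 3.78 CPM in WT, lower in 6 of 8 mice. The Ifngr1_KO library of mouse 7 stood apart: its median correlation with the other libraries was 0.800, against 0.878 for the next lowest. The results of the 10 genes are therefore given with and without mouse 7. Mitochondrial transcripts took 0.475% to 2.50% of counts in Ifngr1_KO (median 1.40%) and 0.294% to 1.19% in WT (median 0.569%), and the share was higher in Ifngr1_KO in 6 of 8 mice.

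Of the 10 genes, 1 was called lower in Ifngr1_KO and 0 were called higher at an adjusted p under 0.05 (edgeR's quasi-likelihood test with mouse as a block, Benjamini-Hochberg adjustment over 9851 genes). Across all genes tested, 2.8% were called in either direction, 2.32% lower and 0.477% higher. At an unadjusted p under 0.05 the count was 3 of 10 (Hdc, Trem3 and Cd24a), where 16.3% of all genes tested passed. DESeq2 called 2 of the 10 (Hdc and Cd24a) where it called 10.8% of all genes, and limma-voom with quality weights called 2 (Hdc and Trem3) where it called 6.06%. Without mouse 7, edgeR called 2 of the 10 (Hdc and Trem3) where it called 4.12% of all genes. The median log2 fold change of the 10 was -0.01, against 0.05 over all genes tested, and 5 of the 10 had a positive and 5 a negative log2 fold change. In self-tests on counts simulated for this comparison over 9851 genes, 4% of genes changed by 1.5-fold and 24% of genes changed by 2-fold were called. Of genes changed by 8-fold, 70% were called. The changed genes were drawn at random from all 9851, at any level, and the simulation held no differences between mice. These shares therefore do not give the chance of a call for the 10 genes.

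**Figure D1:**
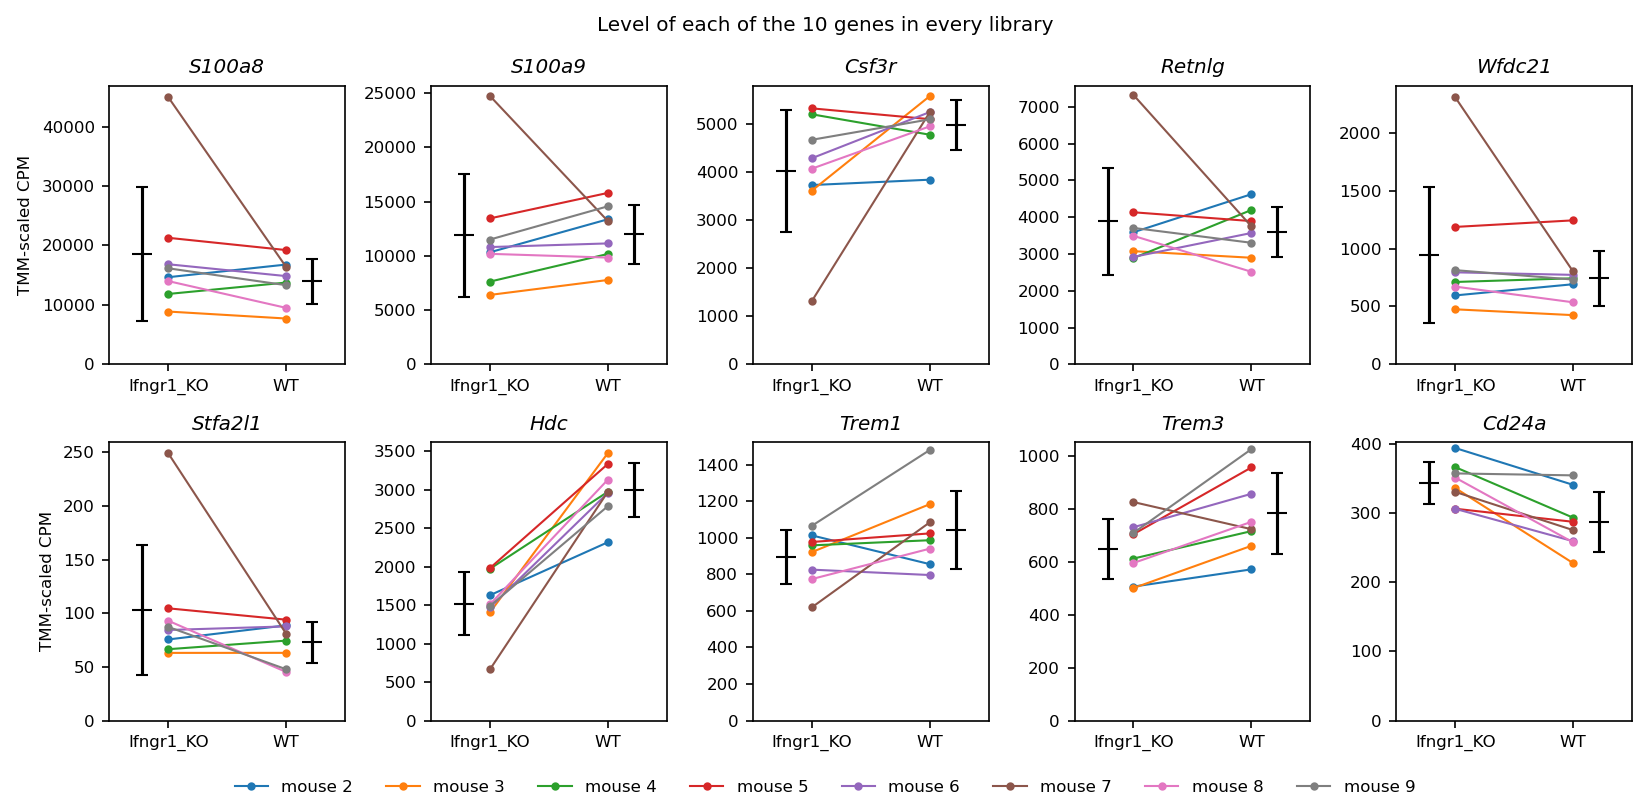
Level of each of the 10 genes as TMM-scaled CPM (y axes, linear, from 0) in the 8 Ifngr1_KO and 8 WT libraries, with a line joining the libraries of 1 mouse and the mean and SD beside each group. Hdc is the gene whose groups do not overlap, and the Ifngr1_KO library of mouse 7 (brown) is the highest for S100a8, S100a9, Retnlg, Wfdc21 and Stfa2l1 and the lowest for Csf3r, Hdc and Trem1.

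Hdc encodes histidine decarboxylase and lies at chr2:126593667-126619299 on the minus strand (mm10; ENSMUSG00000027360). Its level was 665 CPM in the lowest, 1499 CPM in the median and 1981 CPM in the highest Ifngr1_KO library, against 2316, 2972 and 3474 CPM in the lowest, median and highest WT libraries. Every Ifngr1_KO library was therefore below every WT library, a separation in this direction that 1.48% of all genes tested showed. The means were 1515 ± 409.6 CPM in Ifngr1_KO and 2992 ± 352 CPM in WT (SD, n = 8 mice each). Hdc had a log2 fold change of -1.03 (SE 0.17, 95% interval -1.40 to -0.66; adjusted p = 0.00745, edgeR's quasi-likelihood test with Benjamini-Hochberg adjustment).

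Within each mouse the Ifngr1_KO level of Hdc was 70.3% of the WT level in mouse 2, 40.5% in mouse 3, 66.4% in mouse 4, 59.4% in mouse 5, 49.7% in mouse 6, 22.4% in mouse 7, 48.2% in mouse 8 and 53.4% in mouse 9. Hdc was thus lower in Ifngr1_KO in 8 of 8 mice, which 4.99% of all genes tested also were, and mouse 7 had the widest gap. Without mouse 7 Hdc was still called, at -0.87 on the log2 scale (SE 0.10, adjusted p = 8.66e-04 by the same edgeR test), and leaving out any 1 mouse gave values between -1.09 and -0.87 with adjusted p between 8.66e-04 and 0.0372. The Hdc counts were not few: the lowest library held 7847.

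The Hdc difference was also read beside the mitochondrial share, whose part in it was not tested. In the 2 mice whose Ifngr1_KO library had the lower mitochondrial share, the within-mouse log2 differences of Hdc were -0.59 and -0.51, and in the 6 others they ran from -2.16 to -0.75. Among these 6 the order was mixed. Mouse 3, with shares of 0.769% in Ifngr1_KO and 0.348% in WT, was at -1.30. Mouse 5, with 1.84% in Ifngr1_KO and 0.612% in WT, was at -0.75. With the mitochondrial share as a covariate the log2 fold change of Hdc was -0.63 and the call was lost (adjusted p = 0.545 in edgeR), in a fit that called 65 genes lower and 4 higher in all. Bulk libraries cannot tell fewer Hdc-expressing cells from less Hdc RNA per cell.

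The stretch that surrounds the RefSeq start of Hdc is shown because Hdc is the gene of the 10 that edgeR called over all 8 mice. It spans 250 bases before to 50 bases after the RefSeq start (GRCm38.p6, chr2:126618629-126618928, minus strand), 5′ to 3′, all in lower case because none of the motifs searched was found in it.
Hdc: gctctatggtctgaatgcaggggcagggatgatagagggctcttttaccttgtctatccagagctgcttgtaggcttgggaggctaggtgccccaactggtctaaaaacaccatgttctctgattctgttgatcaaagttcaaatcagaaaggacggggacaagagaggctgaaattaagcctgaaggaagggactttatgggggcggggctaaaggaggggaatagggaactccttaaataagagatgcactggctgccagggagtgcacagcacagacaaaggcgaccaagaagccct
The motifs searched, on both strands, were TATAAA (the TATA box), TTCNNNGAA (the palindrome bound by STAT factors, called GAS), the core of the interferon-stimulated response element (GAAA repeated after any 2 bases) and TTNNGNAA (the C/EBP core). The RefSeq table held such a window for 7 of the 10 genes, not for Wfdc21, Trem3 and Cd24a. TTCNNNGAA was present in 1 of the 7 (Trem1), against 8.30% of 32851 promoters of the same length, and the GAAA repeat in 0 of the 7, against 3.44%. TATAAA was present in 2 of the 7 (S100a8 and S100a9), against 13.6%, and TTNNGNAA in 5 of the 7, against 40.7%. A match is a run of letters, not a binding site, and its absence concerns this window alone. For Hdc, the window does not contain the start of the gene in GENCODE (chr2:126619299, minus strand), and the sequence there was not searched.

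Mast cells and basophils, the classic histamine producers, left few transcripts in these libraries. The 16 markers listed for them summed to 2.45 to 17.5 CPM in Ifngr1_KO (median 9.65 CPM) and 0.837 to 24.8 CPM in WT (median 7.33 CPM). The sum was higher in Ifngr1_KO in 5 of 8 mice, and its part in the Hdc difference was not tested. The mast cell protease genes Mcpt4, Mcpt1, Tpsab1 and Tpsb2 and the IgE receptor subunit gene Ms4a2 had 0 counts in every library. The carboxypeptidase gene Cpa3, the basophil protease gene Mcpt8 and the IgE receptor gene Fcer1a stayed at or below 1.11, 3.90 and 0.625 CPM in every Ifngr1_KO library, and at or below 0.0505, 0.209 and 0 CPM in every WT library. Of the 16, only Prss34, another basophil protease gene, and Kit, the stem cell factor receptor gene, passed the filter on low counts, and 0 of these 2 were called by edgeR, 1 at an unadjusted p under 0.05, 1 by DESeq2 and 0 by limma-voom. Prss34 averaged 3.18 ± 3.76 CPM in Ifngr1_KO and 0.446 ± 1.08 CPM in WT, and Kit 4.03 ± 4.05 CPM in Ifngr1_KO and 8.08 ± 7.19 CPM in WT.

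Of 13 genes for histamine synthesis, transport, breakdown and sensing, 4 passed the filter (Hdc, Hnmt, Aldh2 and Hrh2), of which 1 (Hdc) was called lower and 0 higher. Their median log2 fold change was -0.53, against 0.05 over all genes tested. Hnmt, the methyltransferase that inactivates histamine inside cells, averaged 15.1 ± 4.401 CPM in Ifngr1_KO and 14.9 ± 5.41 CPM in WT (SD, n = 8), with a log2 fold change of 0.05 (95% interval -0.49 to 0.59). Aldh2, an aldehyde dehydrogenase that can act late in histamine breakdown, averaged 206 ± 79.1 CPM in Ifngr1_KO and 219 ± 86.2 CPM in WT. The secreted diamine oxidase gene Aoc1, the monoamine oxidase gene Maob and the receptor genes Hrh1, Hrh3 and Hrh4 had 0 counts in every library, so 1 of the 4 histamine receptors was detected.

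That receptor gene, Hrh2, encodes the H2 receptor, which raises cyclic AMP, and was singled out after its values were seen. Its level ran from 14.5 to 119 CPM in Ifngr1_KO and from 152 to 190.1 CPM in WT, with means of 88.3 ± 32.2 CPM in Ifngr1_KO and 170.2 ± 14.035 CPM in WT (SD, n = 8). The groups did not overlap, as for 1.65% of all genes tested in either direction. Its log2 fold change of -1.08 (SE 0.29) had an adjusted p of 0.0784 in edgeR and was not called. Without mouse 7, whose Ifngr1_KO library held the lowest level, Hrh2 was called (log2 fold change -0.81, adjusted p = 0.00142 in edgeR). Over 17 alternative settings its log2 fold change ran from -1.18 to -0.51. DESeq2 and limma-voom each called 2 of the 4 tested histamine genes lower, where they called 10.8% and 6.06% of all genes in either direction.

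**Figure D2:**
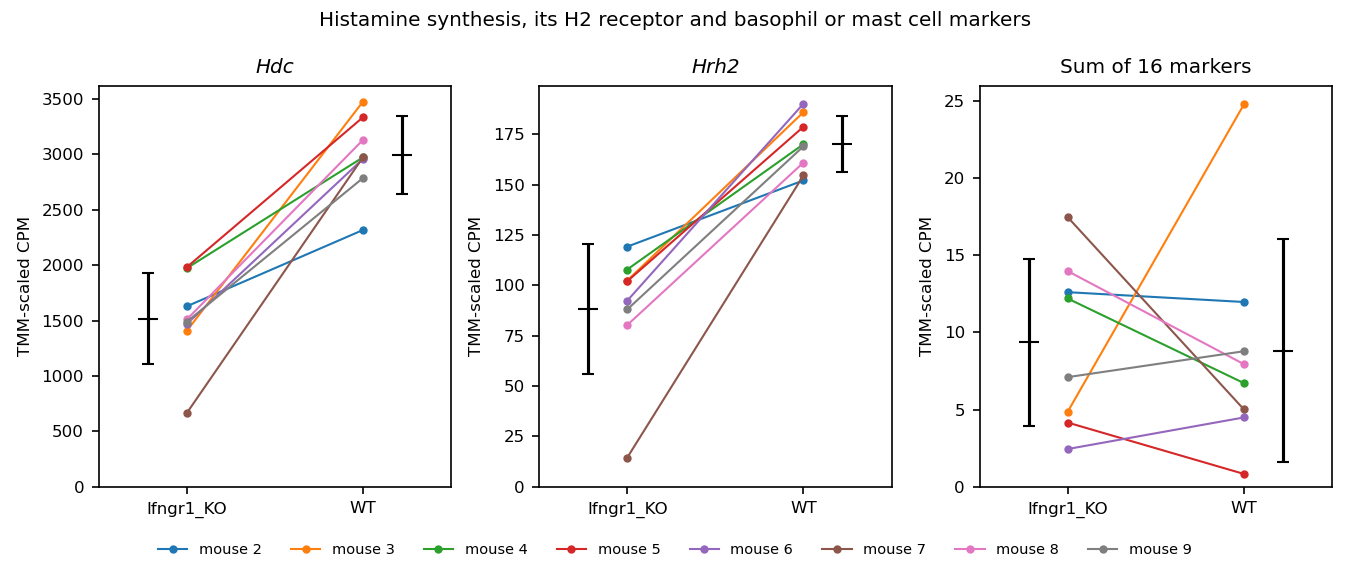
Levels of Hdc, of Hrh2 and the summed level of 16 basophil and mast cell markers as TMM-scaled CPM (y axes, linear, from 0) in 8 Ifngr1_KO and 8 WT libraries, with lines joining 1 mouse and the mean and SD beside each group. The Ifngr1_KO libraries lie below all WT libraries for Hdc and for Hrh2, while the marker sum stays under 25 CPM and overlaps between the groups.

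S100a8 and S100a9 encode the subunits of calprotectin, an abundant cytosolic protein of neutrophils. S100a8 (chr3:90668978-90670035, plus strand, ENSMUSG00000056054) and S100a9 (chr3:90692632-90695721, minus strand, ENSMUSG00000056071) lie 22.6 kb apart on opposite strands. Together they took 1.64% to 6.58% of all counts in Ifngr1_KO libraries and 1.43% to 3.22% in WT libraries. Per kilobase of annotated exon they ranked 2 and 3 among the 9851 genes in Ifngr1_KO (S100a8 at 2) and 3 and 2 in WT (S100a8 at 3). Their start regions are shown for comparison, each 250 bases before to 50 after the RefSeq start (GRCm38.p6; S100a8 at chr3:90668821-90669120, plus strand; S100a9 at chr3:90695672-90695971, minus strand), with TATAAA and TTNNGNAA matches on either strand in capitals.
S100a8: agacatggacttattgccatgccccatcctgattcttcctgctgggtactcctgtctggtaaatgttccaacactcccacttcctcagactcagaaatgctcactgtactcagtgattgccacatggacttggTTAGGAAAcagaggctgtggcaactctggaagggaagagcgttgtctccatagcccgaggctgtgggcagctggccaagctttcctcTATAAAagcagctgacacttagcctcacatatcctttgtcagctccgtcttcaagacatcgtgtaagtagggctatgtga
S100a9: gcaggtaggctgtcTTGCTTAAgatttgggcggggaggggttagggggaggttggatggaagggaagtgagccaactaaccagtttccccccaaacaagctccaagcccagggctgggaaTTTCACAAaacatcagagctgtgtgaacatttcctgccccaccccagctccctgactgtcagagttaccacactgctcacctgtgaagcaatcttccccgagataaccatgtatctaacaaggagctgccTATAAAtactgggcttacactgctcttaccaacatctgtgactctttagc
TATAAA begins 30 bases before the RefSeq start in S100a8 and at the start itself in S100a9. TTNNGNAA was found once in S100a8 and at 2 places in S100a9.

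The level of S100a8 was 8878 CPM in the lowest, 15407 CPM in the median and 44952 CPM in the highest Ifngr1_KO library, against 7706, 14301 and 19224 CPM in WT. The groups overlapped over most of their range, with 6 of 8 Ifngr1_KO libraries inside the WT range and the top value in mouse 7. In the paired fit the log2 fold change of S100a8 was 0.30 (SE 0.17, 95% interval -0.07 to 0.67; adjusted p = 0.412 in edgeR), and 0.14 without mouse 7 (adjusted p = 0.520 in edgeR), whose omission lowered the Ifngr1_KO mean to 14808 ± 3928 CPM (n = 7), against 13938 ± 3814 CPM in WT (n = 8).

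The level of S100a9 was 6398, 10571 and 24736 CPM in the lowest, median and highest Ifngr1_KO libraries, against 7774, 12175 and 15803 CPM in WT. The groups overlapped, with the Ifngr1_KO library below its WT partner in 6 of 8 mice and mouse 7 again at the top. For S100a9, the fitted log2 fold change came to -0.10 (SE 0.14, 95% interval -0.41 to 0.22; adjusted p = 0.780 in edgeR), and -0.23 without mouse 7 (SE 0.07, adjusted p = 0.101 in edgeR).

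The ratio of S100a8 to S100a9 counts within a library separated the genotypes although neither gene did. It was 1.42, 1.39, 1.55, 1.58, 1.56, 1.82, 1.37 and 1.40 in the Ifngr1_KO libraries of mice 2 to 9, against 1.26, 0.991, 1.35, 1.216, 1.33, 1.24, 0.965 and 0.914 in the WT libraries of those mice. The ratio was higher in Ifngr1_KO in 8 of 8 mice and the groups did not overlap, also without mouse 7. It averaged 1.51 ± 0.149 in Ifngr1_KO and 1.16 ± 0.174 in WT (SD, n = 8), a mean within-mouse difference of 0.39 ± 0.17 on the log2 scale (1.31-fold), and leaving out any 1 mouse gave 0.36 to 0.42. The ratio was noticed after the values were seen and is given as a description with no test. How many other gene pairs have ratios that separate the genotypes in this way was not counted, so no share stands beside it. No 31-base stretch of either transcript occurs in another gene's annotated transcripts, and library size and scaling cancel in the ratio. The annotated exons differ in length (694 and 522 bases for S100a8 and S100a9). What part length, the mitochondrial share or PCR copies play in the ratio was not tested.

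**Figure D3:**
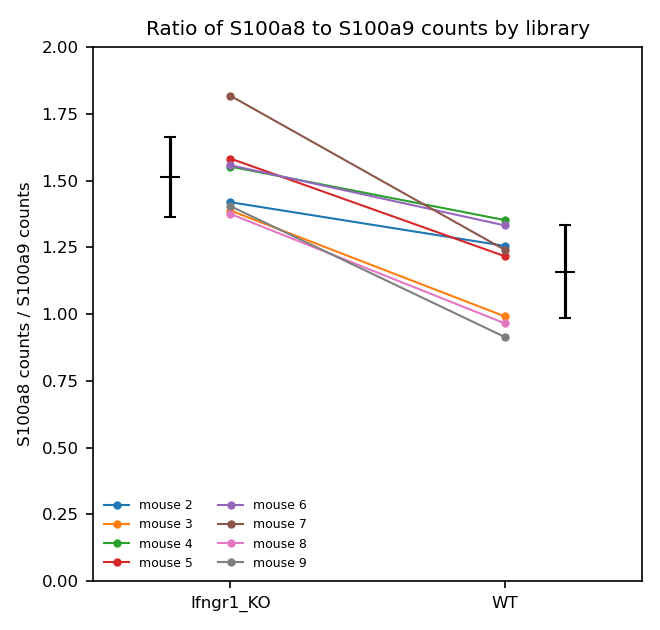
Ratio of S100a8 to S100a9 counts (y axis, linear, from 0) in 8 Ifngr1_KO and 8 WT libraries, with a line joining the libraries of 1 mouse and the mean and SD beside each group. All 8 lines fall to the right: the Ifngr1_KO ratios lie between 1.37 and 1.82 and the WT ratios between 0.914 and 1.35.

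Of 11 tested genes of the S100 family, S100a8 and S100a9 included, 0 were called by edgeR, with a median log2 fold change of 0.27 against 0.05 over all genes tested. Of 8 tested genes for receptors and partners of S100A8/A9, 0 were called, with a median of -0.17. Among these, Cd14, the co-receptor of TLR4, averaged 4904 ± 739 CPM in Ifngr1_KO and 5000.3 ± 763 CPM in WT (log2 fold change -0.03, -0.02 without mouse 7 and 0.08 when scaled by library totals). The adaptor gene Myd88 averaged 896 ± 172 CPM in Ifngr1_KO and 1161 ± 142 CPM in WT, with a log2 fold change of -0.39 (adjusted p = 0.143 in edgeR).

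Csf3r (chr4:126024550-126044440, plus strand, ENSMUSG00000028859) encodes the receptor for granulocyte colony-stimulating factor. Its level was 1311, 4174 and 5320.3 CPM in the lowest, median and highest Ifngr1_KO libraries, against 3837, 5094 and 5572 CPM in WT. The groups overlapped, 3 of 8 Ifngr1_KO libraries lay below all WT libraries, and mouse 7 was the lowest by far. Csf3r had a log2 fold change of -0.38 (SE 0.21, 95% interval -0.85 to 0.09; adjusted p = 0.403 in edgeR), and -0.17 without mouse 7 (adjusted p = 0.399 in edgeR). In Csf3r, 23.1% of the 31-base stretches of its transcripts also occur in other annotated genes, most of them (19.9%) in the annotated gene AC105061.2, which was not analysed here, so its level is uncertain to that degree.

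Of 17 tested genes of G-CSF receptor signalling, Csf3r included, 0 were called by edgeR, 5 had an unadjusted p under 0.05, all lower in Ifngr1_KO, and DESeq2 and limma-voom called 2 each. Over all genes tested, 16.3% had such an unadjusted p, and DESeq2 and limma-voom called 10.8% and 6.06%. The median log2 fold change of the 17 was -0.19 against 0.05 over all genes tested. Ptpn6, which encodes the phosphatase SHP-1, averaged 1714 ± 535 CPM in Ifngr1_KO and 2224 ± 146 CPM in WT, with a log2 fold change of -0.46 (adjusted p = 0.288 in edgeR), and -0.26 without mouse 7.

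Retnlg, Wfdc21 and Stfa2l1 encode small proteins of neutrophils. Retnlg (chr16:48872621-48874496, plus strand, ENSMUSG00000022651) encodes resistin-like gamma, a secreted cysteine-rich protein. Its level was 2890.1, 3543 and 7326 CPM in the lowest, median and highest Ifngr1_KO libraries, against 2517, 3663 and 4626 CPM in WT. The groups overlapped, with 7 of 8 Ifngr1_KO libraries inside the WT range and mouse 7 above it. In the paired fit the log2 fold change of Retnlg was 0.07 (SE 0.16, 95% interval -0.28 to 0.42; adjusted p = 0.857 in edgeR) and turned to -0.05 without mouse 7.

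Wfdc21 (chr11:83746940-83752642, plus strand, ENSMUSG00000051748) encodes a secreted protein with a whey acidic protein fold, the fold of several antiproteases. Its level was 475, 753 and 2308 CPM in the lowest, median and highest Ifngr1_KO libraries, against 425, 738 and 1244 CPM in WT. The medians nearly coincided, and the only Ifngr1_KO library outside the WT range was that of mouse 7. For Wfdc21, the fitted log2 fold change came to 0.22 (SE 0.18, 95% interval -0.17 to 0.61; adjusted p = 0.565 in edgeR), and 0.05 without mouse 7.

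Stfa2l1 (chr16:36156811-36161953, plus strand, ENSMUSG00000059657) belongs to the mouse stefin A cluster of intracellular cysteine protease inhibitors. Its level was 63.1, 85.8 and 249 CPM in the lowest, median and highest Ifngr1_KO libraries, against 45.3, 77.7 and 94.0 CPM in WT. The groups overlapped, with the Ifngr1_KO library higher in 4 mice and lower in 4. Stfa2l1 had a log2 fold change of 0.40 (SE 0.22, 95% interval -0.09 to 0.89; adjusted p = 0.405 in edgeR), and 0.23 without mouse 7. Of the 31-base stretches of Stfa2l1, 41.6% occur in other genes, 29.3% in its near copy Stfa2, so reads could have been divided between them; Stfa2 itself averaged 4.97 CPM in Ifngr1_KO and 1.72 CPM in WT.

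In the 3 families around these genes, edgeR called 1 gene higher and 1 lower. Both were among 9 tested stefins and cystatins, whose median log2 fold change was 0.36 against 0.05 over all genes tested. Cstb, which encodes the cathepsin inhibitor stefin B, averaged 655 ± 239 CPM in Ifngr1_KO and 380.2 ± 49.3 CPM in WT, with a log2 fold change of 0.73 (SE 0.15, adjusted p = 0.0268 in edgeR). It was higher in Ifngr1_KO in 8 of 8 mice, as were 2.76% of all genes tested. Cst7, which encodes the lysosomal inhibitor cystatin F, averaged 9.61 ± 3.69 CPM in Ifngr1_KO and 19.6 ± 6.36 CPM in WT, with a log2 fold change of -1.04 (SE 0.21, adjusted p = 0.0264 in edgeR). It was lower in 8 of 8 mice, as were 4.99% of all genes tested. Without mouse 7 edgeR again called Cstb higher (0.61) and Cst7 lower (-0.95). Leaving out mouse 3, 6, 8 or 9 ended both calls, and leaving out mouse 4 or 5 ended that of Cst7. The mitochondrial covariate also ended both calls, and library totals and no filter ended that of Cst7.

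Of 2 tested resistin family genes and of 4 tested genes with the whey acidic protein fold, 0 were called by edgeR. Retn, which encodes resistin, averaged 4.34 ± 3.09 CPM in Ifngr1_KO and 2.42 ± 0.684 CPM in WT, far below its relative Retnlg. Wfdc17 averaged 1572 ± 1319 CPM in Ifngr1_KO and 855 ± 468 CPM in WT, with a log2 fold change of 0.69 (adjusted p = 0.0760 in edgeR), and was called without mouse 7 (0.51, adjusted p = 0.00396 in edgeR). Slpi, the secretory leukocyte protease inhibitor gene, averaged 3425 ± 1449 CPM in Ifngr1_KO and 2897 ± 406 CPM in WT (log2 fold change 0.17, and 0.0072 without mouse 7).

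Trem1 and Trem3 encode activating receptors of myeloid cells that signal through the adaptor DAP12, and their genes lie 0.853 kb apart on chromosome 17. Trem1 (chr17:48232768-48246924, plus strand, ENSMUSG00000042265) was at 619, 940.1 and 1065 CPM in the lowest, median and highest Ifngr1_KO libraries, against 796, 1005 and 1480 CPM in WT. The groups overlapped, with Trem1 lower in Ifngr1_KO in 6 of 8 mice. In the paired fit the log2 fold change of Trem1 was -0.22 (SE 0.12, 95% interval -0.48 to 0.05; adjusted p = 0.405 in edgeR), and -0.13 without mouse 7.

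Trem3 (chr17:48247777-48258841, plus strand, ENSMUSG00000041754), known as a functional receptor in mice, was at 499.9, 657 and 824 CPM in the lowest, median and highest Ifngr1_KO libraries, against 570.4, 736 and 1024 CPM in WT. The groups overlapped, but Trem3 was lower in Ifngr1_KO in 7 of 8 mice, mouse 7 being the exception. At least 7 of 8 mice were lower for 11.7% of all genes tested. For Trem3, the fitted log2 fold change came to -0.27 (SE 0.10, 95% interval -0.49 to -0.05; adjusted p = 0.199 in edgeR) and was not called. Without mouse 7 it was -0.33 (SE 0.06, adjusted p = 0.0191 in edgeR) and was called.

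Of 14 tested genes of the TREM family and DAP12 signalling, Trem1 and Trem3 included, 0 were called by edgeR, 6 had an unadjusted p under 0.05 (4 lower and 2 higher in Ifngr1_KO), and DESeq2 and limma-voom called 1 each. Over all genes tested, 16.3% had such an unadjusted p, and DESeq2 and limma-voom called 10.8% and 6.06%. The median log2 fold change of the 14 was -0.24 against 0.05 over all genes tested. Tyrobp, which encodes DAP12, averaged 4916 ± 1887 CPM in Ifngr1_KO and 4023 ± 855 CPM in WT (log2 fold change 0.23, adjusted p = 0.414 in edgeR, and 0.11 without mouse 7). Pglyrp1, which encodes a peptidoglycan-binding granule protein reported as a TREM1 ligand, averaged 1541 ± 583 CPM in Ifngr1_KO and 1456 ± 377 CPM in WT (log2 fold change 0.04, and -0.07 without mouse 7).

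Cd24a (chr10:43578284-43584265, plus strand, ENSMUSG00000047139) encodes a small glycosylphosphatidylinositol-anchored surface glycoprotein that binds inhibitory Siglec receptors. Its level was 306, 344 and 394 CPM in the lowest, median and highest Ifngr1_KO libraries, against 228, 282 and 355 CPM in WT. The groups overlapped, with 3 of 8 Ifngr1_KO libraries above all WT libraries, and Cd24a was higher in Ifngr1_KO in 8 of 8 mice, as were 2.76% of all genes tested; at least 7 of 8 mice were higher for 10.2%. Cd24a had a log2 fold change of 0.27 (SE 0.09, 95% interval 0.06 to 0.48; adjusted p = 0.182 in edgeR) and was not called, and it was 0.27 without mouse 7 as well. DESeq2 called it (0.27, adjusted p = 0.0342). Cd24a shares chromosome 10 with Ifngr1, 24.0 Mb away, and whatever is linked to the targeted locus cannot be told apart from the genotype. The annotated gene Gm6212, which holds 4.28% of the 31-base stretches of Cd24a, averaged 2.17 CPM in Ifngr1_KO and 2.44 CPM in WT. Of 6 tested genes in the list drawn up around CD24, not all of which encode its binding partners, 0 were called by edgeR. The Siglec gene Siglece averaged 774 ± 157 CPM in Ifngr1_KO and 914 ± 107 CPM in WT. Selplg, which encodes a ligand of P-selectin, averaged 2865 ± 598 CPM in Ifngr1_KO and 2755 ± 556 CPM in WT.

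**Figure D4:**
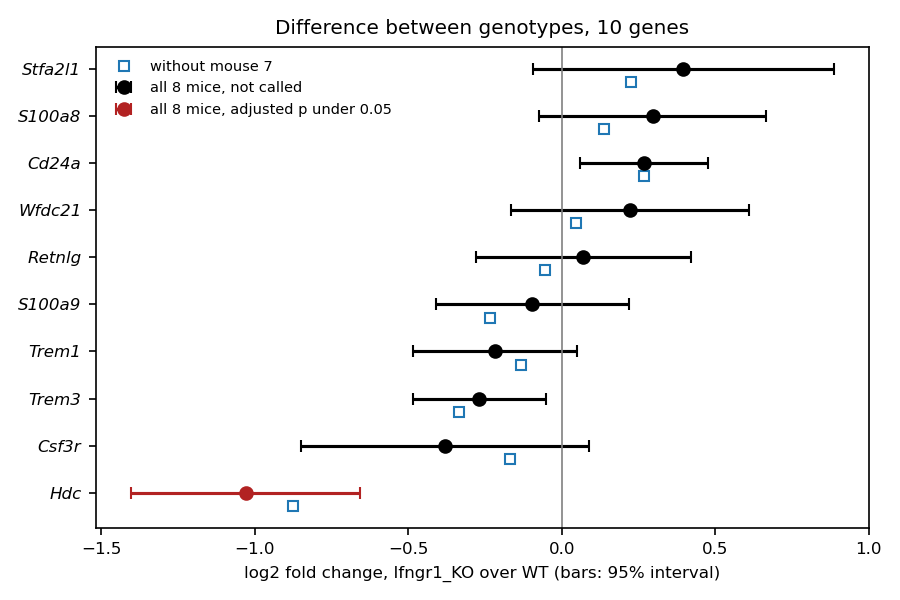
Log2 fold change of each of the 10 genes, Ifngr1_KO over WT (x axis), from edgeR over 8 mice, with the 95% interval as a bar and the value without mouse 7 as an open square. The interval of Hdc (red, called) lies wholly below 0, those of Trem3 and Cd24a leave out 0 without passing the adjusted test, and without mouse 7 the values of S100a8, Wfdc21, Stfa2l1 and Csf3r lie closer to 0.

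Compared per kilobase of exon, the 10 genes spanned more than 2 orders of magnitude in both genotypes. Exon length here joins the exons of all annotated isoforms. A gene expressed mainly from a shorter transcript is therefore placed too low. In Ifngr1_KO the order was S100a8 (26766 CPM per kilobase), S100a9 (22761), Retnlg (6566), Wfdc21 (2177), Csf3r (1114), Trem3 (651), Trem1 (299), Stfa2l1 (246), Hdc (237) and Cd24a (133). In WT it was S100a9 (22961 CPM per kilobase), S100a8 (20084), Retnlg (6064), Wfdc21 (1714), Csf3r (1378), Trem3 (786), Hdc (468), Trem1 (348), Stfa2l1 (174) and Cd24a (111). Hdc thus stood at place 9 in Ifngr1_KO and at place 7 in WT. It was above Trem1 in 0 of 8 Ifngr1_KO libraries and in 7 of 8 WT libraries, although the ranges of both genes overlapped in each genotype. S100a9 was above S100a8 in 0 of 8 Ifngr1_KO libraries and in 6 of 8 WT libraries, again with overlapping ranges. Of the neighbours in the WT order, S100a8 and Retnlg, and Trem3 and Hdc, did not overlap in either genotype. Retnlg and Wfdc21, Csf3r and Trem3, and Trem1 and Stfa2l1 overlapped in Ifngr1_KO and not in WT, and the others overlapped in both. Among all 9851 genes ranked per kilobase, Hdc stood at 278 in Ifngr1_KO and 179 in WT, and Retnlg at 9 in Ifngr1_KO and 11 in WT.

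The 10 genes differed in how much they varied between mice. Without mouse 7 the coefficient of variation in Ifngr1_KO ran from 9.26% for Cd24a to 30.0% for Wfdc21, and in WT over all 8 mice from 10.4% for Csf3r to 32.2% for Wfdc21. With mouse 7 included it reached 62.3% for Wfdc21 and 60.6% for S100a8 in Ifngr1_KO. Cd24a and Trem1 were among the steadiest in Ifngr1_KO, at 8.76% and 16.4% with mouse 7 included.

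In mouse 7 the 10 genes divided by their annotated exon length. This length joins the exons of all annotated isoforms and can exceed that of the transcripts measured. The 5 genes with 419 to 694 exon bases (Stfa2l1, Wfdc21, S100a9, Retnlg and S100a8) had within-mouse log2 differences of 0.91 to 1.62, while Csf3r (3609 bases) was at -1.997, Hdc (6389 bases) at -2.16 and Trem1 (2996 bases) at -0.81. Trem3 (994 bases) and Cd24a (2580 bases) were at 0.19 and 0.26. Across all genes in that mouse the median within-mouse log2 difference was 1.28 for 152 genes under 700 bases and -0.64 for 1778 genes of 4000 to 8000 bases. Over the 8 mice the corresponding medians of the fitted log2 fold change were 0.27 and -0.13, and without mouse 7 they were 0.13 and -0.06. The part of transcript length in the values of the 10 genes was not tested.

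**Figure D5:**
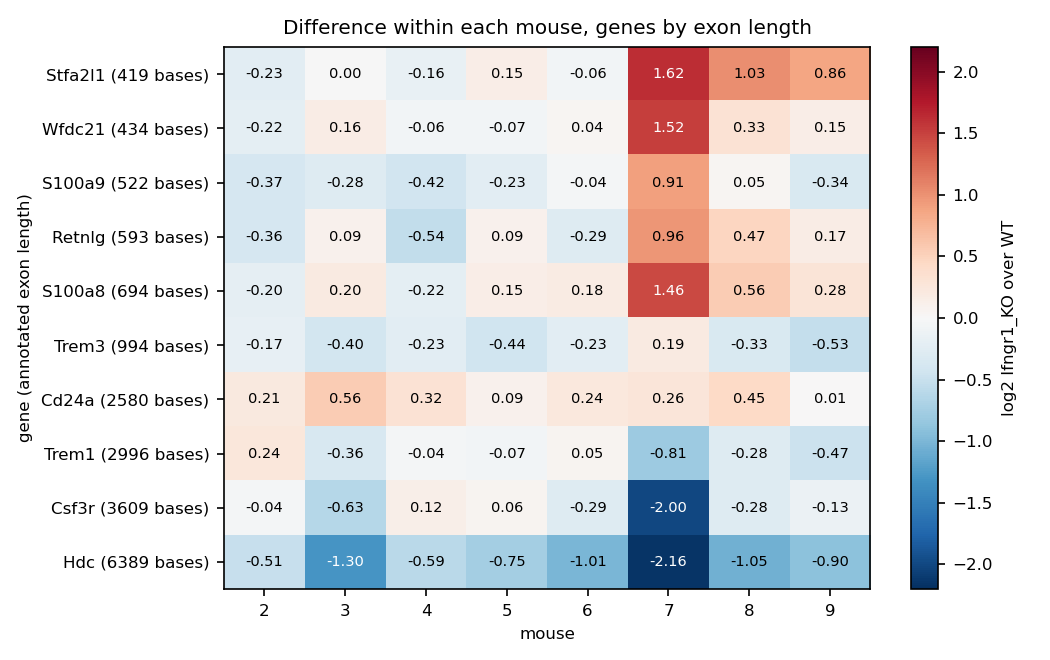
Log2 difference between the Ifngr1_KO and WT library of each mouse (colour and printed value, red higher in Ifngr1_KO) for the 10 genes, ordered from the shortest exon length at the top to the longest at the bottom. The Hdc row is negative in 8 of 8 mice, and the column of mouse 7 changes from 1.62 for Stfa2l1 to -2.16 for Hdc.

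Across the 16 libraries, with log2 CPM centred within genotype, the short genes varied together. The 10 pairs among S100a8, S100a9, Retnlg, Wfdc21 and Stfa2l1 had Pearson r of 0.78 to 0.96, and 0.52 to 0.91 over the 14 libraries without mouse 7. Csf3r and Hdc had r of 0.96, and 0.82 without mouse 7. The 10 pairs that join the short genes with Csf3r or Hdc had r of -0.76 to -0.54, which became -0.25 to 0.36 without mouse 7, so the opposition of these 2 sets rested on that mouse. These correlations are descriptions over libraries that share animals and preparation, and they carry no test.

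Among 4867 genes averaging 3 or more on the log2 CPM scale, those whose profile over the 16 libraries was most like that of S100a8 were Sem1 (r = 0.96), Alox5ap (0.94), which encodes the activating protein of leukotriene synthesis, and S100a13 (0.94), another S100 protein gene. Without mouse 7 these values were 0.92, 0.86 and 0.87. The genes most like Hdc were Dcaf11, Sema4a, a semaphorin gene, and Rhbdf2, which encodes the inactive rhomboid iRhom2, all with r of 0.96, and with 0.89, 0.85 and 0.85 without mouse 7. Their Spearman coefficients with Hdc were lower, at 0.77, 0.58 and 0.61, and edgeR called none of the 3 as different between genotypes (adjusted p of 0.329, 0.373 and 0.337).

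Set against the list of 20 other neutrophil genes, Hdc was not alone in being lower. The list was not divided by stage of maturation. Of these 20, 3 were called lower in Ifngr1_KO and 0 higher by edgeR, where 2.32% and 0.477% of all genes tested were. At an unadjusted p under 0.05 the count was 10, all lower, where 16.3% of all genes tested passed in either direction. The median log2 fold change was -0.42 against 0.05 over all genes tested. Ngp, the neutrophilic granule protein gene, averaged 2075 ± 1106 CPM in Ifngr1_KO and 3119 ± 1422 CPM in WT (log2 fold change -0.64, SE 0.10, adjusted p = 0.00588 in edgeR). Ltf, which encodes the granule protein lactoferrin, averaged 355 ± 309 CPM in Ifngr1_KO and 680 ± 376 CPM in WT (log2 fold change -1.09, SE 0.21, adjusted p = 0.0219 in edgeR). Fpr1, the formyl peptide receptor gene, averaged 1351 ± 254 CPM in Ifngr1_KO and 1791 ± 283 CPM in WT (log2 fold change -0.41, SE 0.09, adjusted p = 0.0358 in edgeR). Each of the 3 was lower in 8 of 8 mice, as were 4.99% of all genes tested, and without the mouse block none of these 3 calls held. Without mouse 7 the list had 6 genes called lower and 0 higher, where 4.12% of all genes tested were called in either direction. Fpr1 lost its call when any 1 mouse other than mouse 7 was left out, and Ltf when mouse 3, 6, 8 or 9 was. Library totals also ended the calls of Fpr1 and Ltf, no filter and a mean CPM of at least 10 ended that of Fpr1, and the mitochondrial covariate ended all 3.

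Markers of other cells were read beside these results. B cell transcripts summed to 70.9 to 109 CPM in Ifngr1_KO and 163 to 287 CPM in WT, and Ighm, the immunoglobulin M heavy chain gene, was called lower (log2 fold change -1.75, adjusted p = 1.69e-05 in edgeR). Markers of Kupffer cells and monocytes summed to 1505 to 2678 CPM in Ifngr1_KO and 2257 to 3558 CPM in WT, with the Kupffer cell gene Vsig4 at 0 in every library. Clec4f averaged 0 CPM in Ifngr1_KO and 0.0631 CPM in WT. Ccr2, C1qa and Cx3cr1 averaged 1.38, 5.16 and 13.2 CPM in Ifngr1_KO and 0.836, 5.62 and 11.9 CPM in WT, and edgeR called none of these 3. Of 9 genes tested in that list, Ly6c2 (log2 fold change -0.73) and Adgre1 (-1.11) were called lower, Csf1r, which with Ly6c2 held most of the sum, was at -0.31, and 3 of the 9 had a positive log2 fold change; the mitochondrial covariate ended both calls. Both sums were lower in Ifngr1_KO in 8 of 8 mice, as were Hdc and the sum of the 20 other neutrophil genes (median 36458 CPM in Ifngr1_KO and 45444 CPM in WT). The part of any of these sums in the Hdc difference was not tested. Hepatocyte transcripts summed to 159 to 882 CPM in Ifngr1_KO and 146 to 765 CPM in WT, and erythroid transcripts to 155 to 886 CPM in Ifngr1_KO and 114 to 638 CPM in WT. Eosinophil markers reached at most 30.6 CPM in Ifngr1_KO and 26.7 CPM in WT, T and NK cell markers 26.8 CPM in Ifngr1_KO and 18.7 CPM in WT, and endothelial and stellate cell markers 9.80 CPM in Ifngr1_KO and 19.0 CPM in WT. In the 7 lists of other cell types and precursors that had 0 genes called by edgeR, 4 of 32 genes tested had an unadjusted p under 0.05, DESeq2 called 4 and limma-voom 0. The shares over all genes tested were 16.3%, 10.8% and 6.06%.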

How the data were processed

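RNA of sorted liver neutrophils from 8 chimeric mice was read as bulk RNA-seq in 16 libraries. Per the labels' protocols, 1 ng of RNA was captured by oligo-dT priming (SMARTseq V4), amplified by 13 cycles of PCR and prepared with Nextera XT. This chemistry tags neither molecules nor strands, so PCR copies are counted and a gene cannot be told apart from an antisense partner. The authors deposited unscaled whole numbers per Ensembl gene, which were read as rounded estimated counts because the tools that the submitters' processing notes name are Salmon 0.14.2 and DESeq2 1.22.1, with build mm10. The sources used here do not give the authors' annotation or filters.

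Names and positions came from GENCODE M21 on mm10. Of 54532 identifiers, 25008 had a count and 37 had no name, and these held at most 9.37e-04% of a library. Counts were fitted in R 4.3.3 with edgeR 4.0.16: filterByExpr by group (9851 genes, 99.7% of counts), TMM scaling, mouse as a block, glmQLFit (robust) and glmQLFTest for genotype, with Benjamini-Hochberg adjustment over all genes tested and a threshold of 0.05. The SE was taken as |log2 fold change| divided by the root of F. Depth ran from 12.5 to 21.7 M counts, and all intervals and CPM describe spread between mice, not molecules. Within-mouse log2 differences used CPM with 0.5 added. Shared sequence was measured as 31-base stretches of a gene's annotated transcripts found in any other gene. Promoter windows are RefSeq's (GRCm38.p6).

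The mouse number comes from the titles and marks 1 animal; deviations from group means correlated at 0.160 on average within a mouse (0.0320 to 0.383) and at -0.0211 between mice. The 10 genes, 19 lists of related genes and cell markers, and the alternatives were chosen with earlier results of these data known, so no list is independent evidence. Named genes were the 10, Ifngr1, up to 3 called genes a list by smallest p (or the 2 highest where none was called), and the 3 genes most like S100a8 and Hdc; of the markers of other cells most are given as sums. Genes named after their values were seen are Hrh2 (as stated) and those given at or near 0. Further such genes are Hnmt, Aldh2, Stfa2, Elane, Prtn3, Mki67, Csf1r, Ccr2, C1qa and Cx3cr1. The settings varied were the mouse block (left out), the scaling (DESeq2 size factors, library totals, TMM without the 10 genes), the filter (none, or a mean CPM of at least 10), the tool (Wald test of DESeq2 1.42.0, or limma-voom 3.58.1 with quality weights), a mitochondrial covariate, and the mice (each left out in turn).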

Additional observations from a re-analysis of the deposited data

Results flagged for a closer look

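Of 24 groups of 8 libraries examined (each of the 10 genes, Ifngr1 and the S100a8 to S100a9 ratio, in each genotype), 10 held 1 library far from the rest. Chance flags about 1 in 20 groups that are independent and normally spread. These 24 reuse the same 16 libraries and hold genes that vary together, so the 10 flags are not separate events and cannot be set against that rate. In 8 of the 10 it was the Ifngr1_KO library of mouse 7. That library had the highest level of S100a8 (44952 CPM), S100a9 (24736 CPM), Retnlg (7326 CPM), Wfdc21 (2308 CPM) and Stfa2l1 (249 CPM), the lowest level of Csf3r (1311 CPM) and Hdc (665 CPM), and the highest S100a8 to S100a9 ratio (1.82). The remaining flags were in WT: mouse 2 had the lowest Csf3r level (3837 CPM) and mouse 5 the highest Wfdc21 level (1244 CPM). The Ifngr1_KO library of mouse 7 also had the highest mitochondrial share (2.50%) of all 16 libraries and 12.5 M counts, the lowest total. The part of these 2 measures in its values was not tested.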

How the results depend on the processing

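Hdc was lower in Ifngr1_KO under all 17 alternatives (log2 fold change -1.09 to -0.63) and was called under all but the mitochondrial covariate (-0.63, adjusted p = 0.545 in edgeR). Without the mouse block its log2 fold change was -0.98 (adjusted p = 0.00189 in edgeR), 216 genes were called lower and 52 higher, against 229 and 47 with the block, and 5 list genes were called lower, against 8, the lost calls being Ngp, Ltf and Fpr1; the block changed no call among the 10 genes. The mitochondrial covariate turned the sign of S100a8 (-0.18), Csf3r (0.0099), Retnlg (-0.42), Wfdc21 (-0.16), Stfa2l1 (-0.24), Trem1 (0.069), Cd14 (0.064), Slpi (-0.18), Tyrobp (-0.067) and Pglyrp1 (-0.32), none of them called, and left 0 of the 10 genes, 65 genes lower, 4 higher, and 1 list gene lower and 0 higher. Library totals, which move the median of all genes to 0.16, turned S100a9 (0.017) and Cd14 (0.084), and gave 102 genes higher, 5 list genes lower and 2 higher. A mean CPM of at least 10 turned Cd14 (0.058) and gave 126 genes higher and 2 list genes higher; no filter gave 31 genes higher. DESeq2 called 572 genes lower and 488 higher, 2 of the 10 genes (Cd24a, 0.27, added), and 15 list genes lower and 6 higher. Limma-voom called 425 lower and 172 higher, 2 of the 10 genes (Trem3, -0.32, added), and 16 list genes lower and 2 higher, and turned Pglyrp1 (-0.010). Leaving out each mouse gave 144 to 334 genes lower, 19 to 78 higher, 1 to 2 of the 10 genes called, 5 to 14 list genes lower and 0 to 2 higher. Over these fits the log2 fold change ran from -0.055 to 0.17 for Retnlg, from -0.33 to -0.23 for Trem3 and from -0.066 to 0.11 for Pglyrp1, the first value of each being that without mouse 7 (Pglyrp1 was also negative, -0.024, without mouse 9). The cause of these changes was not tested. Depth limits little here: every library held at least 644 counts of each of the 10 genes.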
